A study of Bos taurus with 24 samples.

Results

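The immunoglobulin genes of bovine ovarian follicles are described here: the heavy chain genes IGHG1 and IGHM, the joining chain gene JCHAIN, and 3 genes of B cells and plasma cells, CD79A, CD79B and MZB1. Every array feature (1 spotted sequence) whose platform annotation named IGHG1, IGHM or JCHAIN as its only gene symbol was taken. This gave 61 features of IGHG1, 19 of IGHM and 1 of JCHAIN, and CD79A, CD79B and MZB1 had 1 feature each, so 84 of the 17418 features on the array belong to the 6 genes. Enough values for a fit were present for 75 of the 84, that is 55 of IGHG1, 16 of IGHM and each of the 4 single features. The other 9 had values on 13 to 20 of the 24 arrays. They fell short of the 20 arrays asked for, or could not place all follicles, and were not fitted as single features. Their values still entered the gene means. With a minimum of 16 arrays, 58 features of IGHG1 and 18 of IGHM could be fitted. The genes were chosen with their values in these same follicles known, so the levels and the agreement of IGHG1, IGHM and JCHAIN are descriptions, without a test.

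Total RNA came from 16 follicles of 16 heifers, the largest follicle of each animal, 8 to 12 mm in diameter. Each of 24 arrays held 2 follicles, one labelled with the dye Cy5 and the other with Cy3, and each follicle was on 3 arrays. The labels name the follicles by an identifier and give no treatment, stage, dominance status, breed or age, so each follicle stands for itself and all comparisons are between follicles. Each animal gave 1 follicle, so the errors given here are array errors and hold no spread between animals.

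An antibody is built from heavy and light chains, and the constant region of the heavy chain sets its class: IGHM encodes that of IgM and IGHG1 that of an IgG. JCHAIN encodes a small polypeptide that joins IgM, and IgA, into polymers. Plasma cells, which arise from B cells, make these chains in bulk. CD79A and CD79B are the signalling partners of the antigen receptor on B cells, and MZB1 is an endoplasmic reticulum protein of B cells and plasma cells that aids the assembly and secretion of IgM. Antibody also reaches the follicle as protein from blood plasma, but the arrays measured RNA only.

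The deposited values are log ratios of the 2 dyes on each array, taken here as log2 of Cy5 over Cy3. The labels make this direction likely without stating it. If the ratios run the other way, all signs of the levels turn and the correlations do not change. A level is the fitted log2 difference of a follicle from the mean of the 16 follicles, given with its SE. A ratio array gives no absolute abundance, so it cannot show whether a gene was present or absent, and levels are not compared between genes. In these whole-tissue samples fewer cells of a type and less RNA per cell cannot be told apart. Arrays held 16094 to 17028 values each, and the median SE of a level over all genes was 0.13. For the same reason the labelled tissue could not be checked against its granulosa and theca cell markers.

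IGHG1, averaged over its features, was highest in follicle C26 at 1.73 ± 0.16. It was at 1.11 ± 0.17 in C32, 0.93 ± 0.16 in follicle 26, 0.54 ± 0.16 in follicle 33, 0.29 ± 0.18 in follicle 27, 0.25 ± 0.17 in J980 and 0.15 ± 0.17 in C35. Follicles 861 and C12 lay at the mean, C12 at -0.04 ± 0.17. Below it came C10 at -0.25 ± 0.16, C22 at -0.34 ± 0.17, C13 at -0.68 ± 0.17, follicle 8 at -0.80 ± 0.18, follicle 46 at -0.84 ± 0.18, H893 at -0.94 ± 0.18 and follicle 31 at -1.12 ± 0.17. C26 thus exceeded follicle 31 by 2.85 ± 0.27 (SE), a 7.19-fold ratio. Of the 15 pairs of neighbours in this order, C26 over C32 was the 1 pair that differed by more than 2 SE, at 0.62 ± 0.18, and the rest of the order ran without a gap of that size. The SD of the 16 levels was 0.80, rank 36 of 9031 genes, where the median gene had an SD of 0.17.

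IGHM ran through the follicles in nearly the same order with smaller differences. It was at 1.17 ± 0.15 in C26, 0.89 ± 0.17 in C32, 0.60 ± 0.15 in follicle 26, 0.38 ± 0.15 in follicle 33, 0.18 ± 0.17 in follicle 27, and 0.15 in both C35 (± 0.16) and J980 (± 0.17). The lower follicles were 861 at -0.11 ± 0.17, C22 at -0.17 ± 0.16, C10 at -0.17 ± 0.15, follicle 8 at -0.35 ± 0.17, C12 at -0.36 ± 0.17, follicle 31 at -0.40 ± 0.16, H893 at -0.59 ± 0.17, C13 at -0.64 ± 0.16 and follicle 46 at -0.70 ± 0.17. C26 exceeded follicle 46 by 1.87 ± 0.26, a 3.64-fold ratio, and 0 of the 15 neighbouring pairs differed by more than 2 SE. Follicle 31, lowest for IGHG1, was thus not at the bottom for IGHM, where H893, C13 and follicle 46 lay below it.

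JCHAIN, with its single feature, was also highest in C26 at 1.14 ± 0.16 and next in C32 at 0.72 ± 0.18. Follicle 33 at 0.51 ± 0.16 and C35 at 0.32 ± 0.17 stood before follicle 26 at 0.23 ± 0.16, J980 at 0.16 ± 0.18, follicle 27 at 0.05 ± 0.18, C22 at 0.04 ± 0.17 and C13 at 0.01 ± 0.17. The remaining 7 were C10 at -0.12 ± 0.16, follicle 8 at -0.15 ± 0.18, 861 at -0.27 ± 0.18, C12 at -0.30 ± 0.18, follicle 31 at -0.64 ± 0.17, follicle 46 at -0.73 ± 0.18 and H893 at -0.96 ± 0.18. C26 exceeded H893 by 2.10 ± 0.28, a 4.27-fold ratio. C26 over C32 (0.42 ± 0.19) was again the 1 neighbouring pair that differed by more than 2 SE. C13 lay near the mean for JCHAIN and among the lowest 5 follicles for both IGHG1 and IGHM. Follicle 8 was among the lowest 5 for IGHG1, but not for IGHM or JCHAIN.

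**Figure D1:**
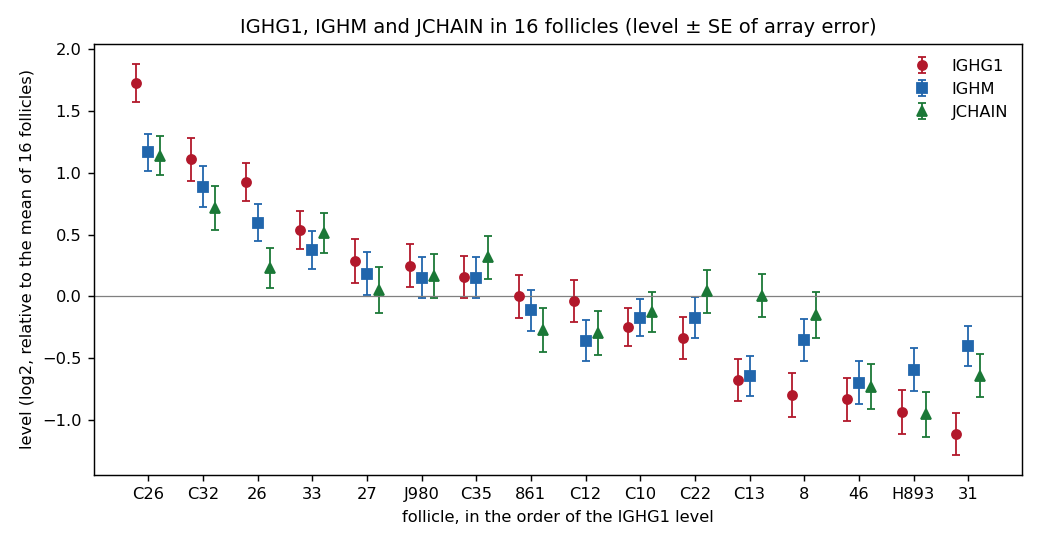
Levels of IGHG1 (circles), IGHM (squares) and JCHAIN (triangles) on the y axis, in log2 relative to the mean of the 16 follicles, with each follicle on the x axis in the order of its IGHG1 level; bars are the SE of array error. All 3 genes were highest in C26 and next highest in C32.

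Across the 16 follicles the 3 genes moved together. Pearson's r was 0.959 between IGHG1 and IGHM (rho 0.938), 0.888 between IGHG1 and JCHAIN (rho 0.885) and 0.891 between IGHM and JCHAIN (rho 0.891). Without C26 and C32, the follicles farthest from the median IGHG1 level, r of IGHG1 was 0.920 with IGHM and 0.781 with JCHAIN. A log2 difference of 1 in IGHG1 went with 0.653 in IGHM and 0.594 in JCHAIN. When each array was left out in turn, r stayed between 0.950 and 0.969 for IGHG1 with IGHM, 0.855 and 0.912 for IGHG1 with JCHAIN, and 0.843 and 0.917 for IGHM with JCHAIN. With 1 feature per gene, IGHG1 was represented by feature 10_23_24, nearly flat with an SD of levels of 0.17. In that setting r of IGHG1 was 0.342 with IGHM and 0.423 with JCHAIN, and r of IGHM with JCHAIN was 0.873. These r values are descriptions: the genes were measured on the same arrays in the same RNA, and they were selected with this pattern known.

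The ratios of single arrays show the same contrasts before any fit. On the array of C22 (Cy5) against C26 (Cy3), 59 of the 61 IGHG1 values were negative, with a mean of -1.89, and all 19 IGHM values were negative, with a mean of -1.23. The JCHAIN ratio on that array was -1.04. On the array of C26 (Cy5) against follicle 33 (Cy3), where C26 carried the other dye, 53 of 55 IGHG1 values and 14 of 16 IGHM values were positive, with means of 1.40 and 0.90, and JCHAIN was at 0.60. C26 was therefore the higher follicle with either dye. At the other extreme, C13 (Cy5) against follicle 46 (Cy3), 36 of 56 IGHG1 values were positive and 20 negative, and 7 of 17 IGHM values were positive, so those follicles were not separated by the features of the heavy chains. JCHAIN, at 0.74 on that array, was higher in C13, and its fitted levels there were 0.01 in C13 and -0.73 in follicle 46. The array of J980 (Cy5) against follicle 8 (Cy3) had a mean IGHG1 ratio of 1.61 where the fit gave 1.24, and that of J980 (Cy5) against follicle 27 (Cy3) had -0.15 where it gave 0.15. These were the arrays on which the fit described IGHG1 least well.

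The loop of arrays is narrow at 1 place, which bears on every level. The follicles fall into 2 sets of 8 with 11 arrays inside each, and only 2 arrays link the sets, C10 (Cy5) against follicle 26 (Cy3) and C26 (Cy5) against follicle 33 (Cy3). One set, called here the set with C26, holds 26, 27, 8, C22, C26, C32, C35 and J980. The other, the set with 33, holds 31, 33, 46, 861, C10, C12, C13 and H893. The mean level in the set with C26 was above that in the set with 33 by 0.83 ± 0.21 for IGHG1, 0.65 ± 0.20 for IGHM and 0.63 ± 0.21 for JCHAIN. The difference was -0.56 ± 0.40 for CD79A, -0.08 ± 0.11 for CD79B and 0.16 ± 0.13 for MZB1. Fits inside each set use no linking array. There r of IGHG1 with IGHM was 0.988 in the set with C26 and 0.889 in the set with 33, r of IGHG1 with JCHAIN was 0.922 and 0.830, and r of IGHM with JCHAIN was 0.954 and 0.778, over 8 follicles each. The rank correlations in the set with C26 and the set with 33 were 1 and 0.738 for IGHG1 with IGHM, 0.881 and 0.690 for IGHG1 with JCHAIN, and 0.881 and 0.452 for IGHM with JCHAIN.

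The features of IGHG1 agreed closely with each other. Over the 1485 pairs of its 55 fitted features the median r of the 16 levels was 0.950, with quartiles of 0.573 and 0.979 and a lowest value of -0.526. The 120 pairs of IGHM features had a median r of 0.879, and the 880 pairs of an IGHG1 with an IGHM feature had 0.877. The JCHAIN feature had a median r of 0.873 with the IGHG1 features and 0.829 with the IGHM features. Over the 2664 genes with at least 2 fitted features, the median of the median r was 0.0796, with quartiles of -0.158 and 0.327. The residuals of the fit, which hold no fitted follicle differences, had a median pairwise r of 0.554 for IGHG1 and 0.282 for IGHM. The part of array error shared between features in the agreement of levels was not tested.

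Set against the mean of the other features of the same gene, 44 of 55 IGHG1 features (80.0%) and 11 of 16 IGHM features (68.8%) had r of at least 0.9, a limit chosen after the values were seen. For IGHG1 the lowest r above it was 0.931 and the highest below it 0.889, and for IGHM these were 0.917 and 0.889. All 44 IGHG1 features and all 11 IGHM features above the limit were highest in C26, and 42 and 10 of them had C32 next. They differed in how wide the differences were: the SD of levels ran from 0.40 to 1.16 among the 44, with a median of 0.89, and from 0.41 to 0.91 among the 11. The gene means are therefore averages over features of unequal response. An F test in limma, adjusted by Benjamini-Hochberg at 0.05, asks whether levels differ between follicles beyond array error. It was passed by 49 of 55 IGHG1 features and 13 of 16 IGHM features, and by 12.2% of all 16358 fitted features. The members were chosen on this contrast, so nothing is read from those counts.

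**Figure D2:**
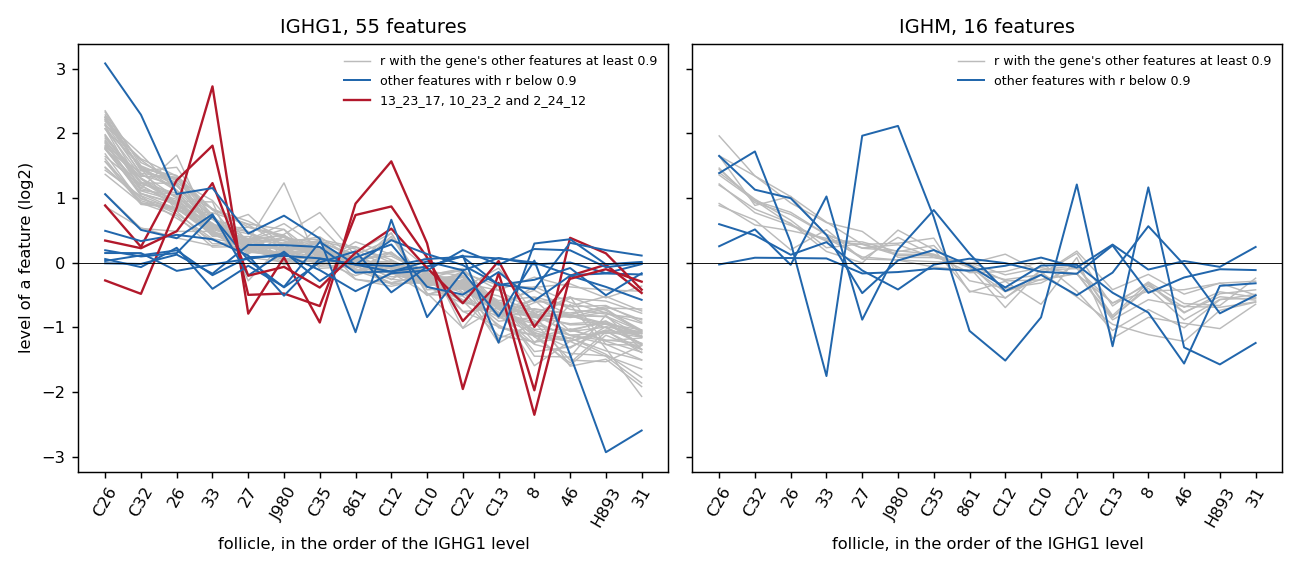
Levels of single features (y axis, log2 relative to the mean of 16 follicles) of IGHG1, left, and IGHM, right, in each follicle (x axis, in the order of the IGHG1 gene level). Grey lines are the 44 IGHG1 and 11 IGHM features with r of at least 0.9 with the other features of their gene, blue lines the other features, and red lines features 13_23_17, 10_23_2 and 2_24_12, which were shifted between the sets of follicles.

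The 11 IGHG1 features below the limit fell into kinds. Features 10_23_14, 10_23_24 and 7_2_7 were nearly flat, with SDs of levels of 0.11, 0.17 and 0.17. Features 6_22_14, 21_22_18 and 25_22_14 were highest in C26 like the rest, with r of 0.889, 0.770 and 0.878; for 6_22_14 the SD was 1.60 and the array error 1.02, the widest of all. Feature 26_3_3 had a pattern of its own, from 0.72 ± 0.14 in follicle 33 to -1.24 ± 0.16 in C13. The levels of 26_3_6 had an SD of 0.26, no wider than its array error of 0.27. With 7_2_7 they are the 3 fitted IGHG1 features whose identifier has a middle number of 2 or 3. None of the 3 reached r of 0.9, against 44 of the 52 fitted IGHG1 features with a middle number of 21 to 24.

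The remaining 3, 13_23_17, 10_23_2 and 2_24_12, shared a pattern with each other, with r of 0.861, 0.892 and 0.950 for their pairs. Feature 13_23_17 was at 2.73 ± 0.92 in follicle 33 and 1.57 ± 0.78 in C12, and at -1.97 ± 0.64 in follicle 8 and -1.95 ± 0.86 in C22. C26, the top follicle of IGHG1, was at -0.27 ± 1.05. All 3 lacked a value on the linking array of C26 against follicle 33, so that 1 array alone joined their sets. Inside the sets they followed the IGHG1 gene level: r was 0.718, 0.907 and 0.927 in the set with C26 and 0.904, 0.939 and 0.882 in the set with 33. Their mean level in the set with C26 minus that in the set with 33 was -1.37, -0.62 and -0.30, where it lay between 0.42 and 1.33 for the 44 agreeing features. Among the fitted heavy chain features 5 had no value on that array, these 3, the flat feature 10_23_14 and feature 13_23_19 of IGHM, and the 44 and 11 agreeing features all had a value on both linking arrays.

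Among the 5 IGHM features below the limit, 13_23_19 had an SD of 1.44 and split the follicles by set. It was at 2.12 ± 0.76 in J980 and 1.96 ± 0.87 in follicle 27, against -1.75 ± 1.26 in follicle 33, and its mean in the set with C26 exceeded that in the set with 33 by 2.64. Inside the sets it did not follow IGHG1 (r of 0.018 and -0.199). Feature 23_22_6 was flat, with an SD of 0.13 and r of -0.200 with the other features. Feature 2_22_6 was precise, with an array error of 0.18, and had a pattern of its own, from 1.02 ± 0.12 in follicle 33 to -0.88 ± 0.14 in follicle 27. Features 2_22_12 and 4_22_6 were highest in C26, with r of 0.889 and 0.565. Features annotated to the same symbol thus behaved unlike each other. The part of annotation, array error or missing values in this was not tested.

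**Figure D3:**
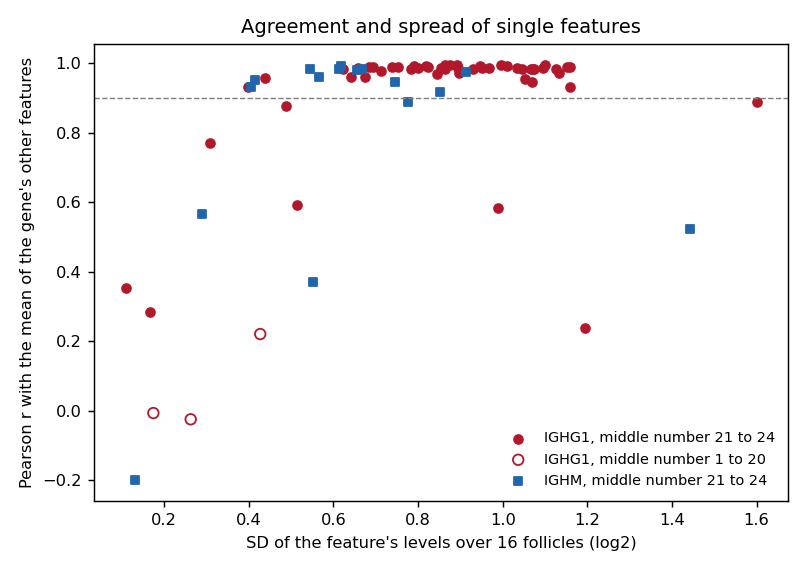
Pearson r of each fitted feature with the mean of the other features of its gene (y axis) against the SD of its levels over 16 follicles (x axis, log2), for IGHG1 (circles) and IGHM (squares). Open circles are the 3 IGHG1 features with a middle identifier number of 1 to 20, all below 0.3; the dashed line is at 0.9, with 44 IGHG1 and 11 IGHM features above it.

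A few features carry several symbols, one of them that of a member, and were not counted. Feature 15_22_18, annotated to MGST2 and IGHG1, had r of 0.834 with the IGHG1 gene level and was highest in C26 at 2.22 ± 0.34. Feature 20_22_14, annotated to HARS2 and IGHG1, had r of 0.035. Feature 18_22_19, annotated to PRCP and IGHM, had r of -0.115 with IGHG1 and an SD of levels of 0.07. Feature 4_9_10, which names CD79A with MSRB1 and SEPX1, ran from 0.43 ± 0.14 in follicle 46 to -0.41 ± 0.14 in C35, the same extremes as the single CD79A feature.

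The B-cell and plasma cell genes varied less, relative to their error, than the antibody genes, and 0 of the 3 passed the F test over genes, in which 1020 of 9031 genes (11.3%) did. CD79A lay between 0.70 ± 0.34 in follicle 46 and -1.11 ± 0.39 in C35, with a median SE of 0.33. Its SD of levels was 0.50 and its array error 0.53 (limma-moderated F test, adjusted p = 0.552). CD79B lay between 0.12 ± 0.09 in follicle 46 and -0.10 ± 0.08 in follicle 26, with an SD of 0.06 and an array error of 0.09 (adjusted p = 0.961). MZB1 lay between 0.24 ± 0.11 in J980 and -0.20 ± 0.11 in H893, with an SD and an array error of 0.13 each (adjusted p = 0.486). In C26 and C32, where the heavy chains were highest, CD79A was at 0.15 ± 0.32 and -0.05 ± 0.34, CD79B at -0.07 ± 0.08 and 0.06 ± 0.09, and MZB1 at 0.09 ± 0.12 and 0.11 ± 0.15. None of the 15 neighbouring pairs in the order of any of these 3 genes differed by more than 2 SE. CD79A also showed a dye difference: its log ratio was negative on 18 of 23 arrays, and the fitted dye term was -0.40, against 0.19 for IGHG1 and -0.04 for JCHAIN.

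The relation of each antibody gene with each B-cell gene was measured over the 16 follicles, 9 relations in all, with two-sided permutation tests of 100000 resamples and Benjamini-Hochberg adjustment over the 9. The levels share arrays and are not fully exchangeable, so these p-values are approximate. The genes were also chosen with earlier results of these data known, so the p-values are read as a description only. With CD79A, r was -0.511 for IGHG1, -0.519 for IGHM and -0.492 for JCHAIN (permutation p = 0.043, 0.0391 and 0.0528; adjusted p = 0.0986 each). The rho values were -0.700, -0.732 and -0.679 (permutation p = 0.00389, 0.00199 and 0.00484, adjusted p = 0.0145 each). The rank relation was thus under the threshold of 0.05 and the linear one was not, though CD79A itself did not pass the F test. The antibody genes moved together, so these are not separate results. Without the 2 follicles farthest from the median of the antibody gene, C26 and C32 for the heavy chains and C26 and H893 for JCHAIN, r with CD79A was -0.776, -0.828 and -0.638. The relation ran downwards: follicles 46, 31 and H893, low in IGHG1, were the 3 highest in CD79A. Follicles 26 and C35, at 0.93 ± 0.16 and 0.15 ± 0.17 in IGHG1, were the lowest in CD79A. C26 and C32, the highest in IGHG1, did not go with it, at 0.15 ± 0.32 and -0.05 ± 0.34 in CD79A.

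This downward relation changed sign without a linking array, and missed the threshold without any of several arrays inside the sets. Without the array of C10 against follicle 26, r with CD79A was 0.227 for IGHG1, 0.301 for IGHM and 0.265 for JCHAIN, and rho was 0.241, 0.303 and 0.279 (adjusted p = 0.366, 0.323 and 0.328). Without the array of follicle 26 against J980, rho was -0.385, -0.209 and -0.306 (adjusted p = 0.270, 0.435 and 0.290). It also missed the threshold without the array of C22 against C26, with rho of -0.600, -0.647 and -0.585 (adjusted p = 0.0585 for each), and without that of follicle 46 against 861, with rho of -0.547, -0.668 and -0.441 (adjusted p = 0.128, 0.0572 and 0.158). For JCHAIN rho was -0.553 without C13 against 46 (adjusted p = 0.0852) and -0.526 without J980 against 8 (adjusted p = 0.0967). Without follicle J980 and its 3 arrays, rho was -0.482, -0.350 and -0.246 (adjusted p = 0.178, 0.274 and 0.379). Inside the set with 33, r of IGHG1 with CD79A was -0.168 and rho -0.595 over 8 follicles, and inside the set with C26 CD79A could not be fitted. Over all 33 alternatives the rank relation passed in 26 for IGHG1, 26 for IGHM and 23 for JCHAIN.

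No relation with CD79B or MZB1 passed by r or rho in the fit used throughout. Under the alternatives the rank relation with CD79B passed in 1 of 34 for IGHG1, 3 for IGHM and 4 for JCHAIN, and that with MZB1 in 2 of 33 for IGHG1, 1 for IGHM and 2 for JCHAIN. With CD79B, r was -0.406 for IGHG1, -0.501 for IGHM and -0.465 for JCHAIN (permutation p = 0.119, 0.0479 and 0.0687; adjusted p = 0.153, 0.0986 and 0.103), and rho was -0.303, -0.462 and -0.471 (permutation p = 0.254, 0.0743 and 0.0687; adjusted p = 0.254, 0.111 and 0.111). Without the 2 farthest follicles r was -0.507, -0.712 and -0.376, and without the array of C10 against follicle 26 it was 0.390, 0.402 and 0.392. With MZB1, r was 0.343 for IGHG1, 0.381 for IGHM and 0.489 for JCHAIN (permutation p = 0.193, 0.146 and 0.0548; adjusted p = 0.193, 0.164 and 0.0986), and rho was 0.388, 0.394 and 0.506 (permutation p = 0.139, 0.132 and 0.0476; adjusted p = 0.156, 0.156 and 0.107). Without the 2 farthest follicles r with MZB1 was 0.188, 0.233 and 0.310. Inside the sets, r of IGHG1 was -0.122 and 0.411 with CD79B and -0.017 and -0.097 with MZB1, in the set with C26 and the set with 33 in that order.

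**Figure D4:**
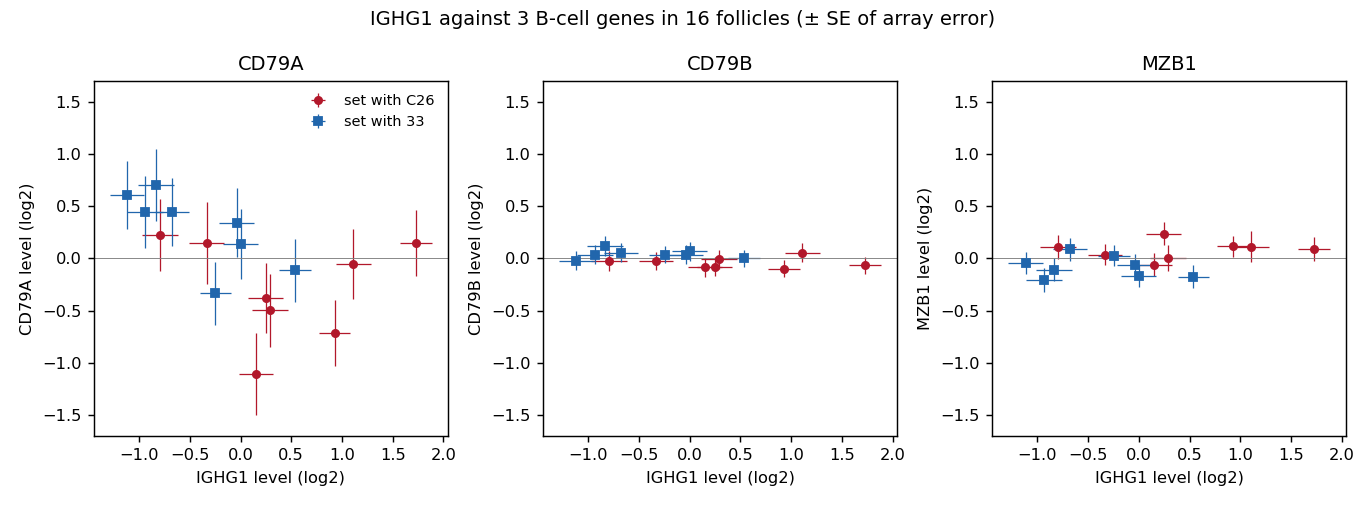
Levels of CD79A, CD79B and MZB1 (y axes, log2, all drawn to the same scale) against the IGHG1 level (x axis, log2) in 16 follicles, with bars for the SE of array error. Circles are the 8 follicles of the set with C26 and squares the 8 of the set with 33; CD79A spans 0.70 to -1.11 with the widest bars, and CD79B and MZB1 stay within 0.24 of 0.

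The other measured genes of these cells, from lists written with earlier results of these data known, are read against the 11.3% of all genes that passed and the median r with IGHG1 of -0.031 over all genes. In the B-cell list 0 of 9 measured genes passed the limma-moderated F test, also 0 in each of the 33 alternatives. Their median r with IGHG1 was -0.301. An unadjusted p under 0.05 in that test was reached by 0 of the 9, against 2349 of 9031 over all genes. CD37, a tetraspanin of B cells, had the smallest p of the list, with r of 0.411 with IGHG1 (adjusted p = 0.316). BLNK, an adaptor of the B-cell receptor, had r of -0.633 (adjusted p = 0.401). In the plasma cell list 1 of 9 passed, with a median r of -0.136. It was FKBP11, a prolyl isomerase of secretory cells, from 0.39 ± 0.15 in follicle 31 to -0.77 ± 0.15 in J980 (adjusted p = 0.0431, passed in 12 of 33 alternatives), with r of -0.173 with IGHG1. PRDX4, a peroxiredoxin of the endoplasmic reticulum, had r of -0.496, the lowest of the list (adjusted p = 0.0813). The r with IGHG1 was positive for 4 of the 9, among them CD38 at 0.523, PRDM1 at 0.338 and MZB1 at 0.343. None of these 4 passed the F test. None of the 12 listed symbols of other immunoglobulin chains was among the measured genes.

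Receptors and signalling partners of antibodies are likewise read against the 11.3% of all genes that passed. Of 8 measured immunoglobulin receptors 0 passed the limma-moderated F test, and 3 had an unadjusted p under 0.05, against 2349 of all 9031 genes. FCER1A, the alpha chain of the IgE receptor, lay between 1.56 ± 0.35 in follicle 27 and -1.26 ± 0.43 in C12 (adjusted p = 0.0702). FCER1G, the signalling chain shared by several Fc receptors, followed IGHG1 with r of 0.884 and was at 0.77 ± 0.16 in C26, against -0.29 ± 0.18 in H893, its lowest (adjusted p = 0.0988). It was the highest of the list in r with IGHG1. The median r of the 8 receptors was -0.085, only 3 of the 8 were positive, and FCMR was lowest at -0.588. Among 7 genes of B-cell receptor signalling 1 passed, the kinase PRKCB, from 0.57 ± 0.12 in J980 to -0.48 ± 0.12 in H893 (adjusted p = 0.0448, passed in 8 of 33 alternatives). LYN, a kinase of B cells and myeloid cells, had r of 0.779 (adjusted p = 0.439). The median r of these 7 genes with IGHG1 was 0.496.

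Markers of other blood cells moved with IGHG1 to different degrees. In the MHC class II list, whose molecules present antigen on B cells, macrophages and dendritic cells, 5 of 8 genes passed the limma-moderated F test and the median r with IGHG1 was 0.830. BOLA-DRA was at 1.24 ± 0.14 in C32 and 1.23 in C26, against -0.83 ± 0.14 in follicle 46 (adjusted p = 0.000393), with r of 0.866. BOLA-DRB3 was at 0.81 ± 0.10 in C26, against -0.48 ± 0.12 in H893 (adjusted p = 0.00142), and its 5 features had r of 0.847 to 0.918 with IGHG1. In the list of markers of all leukocytes 3 of 7 passed, with a median r of 0.703. CORO1A, an actin regulator of leukocytes, was at 0.86 ± 0.13 in C26, against -0.64 ± 0.15 in C13 (adjusted p = 0.0119), with r of 0.881. CD53, a leukocyte tetraspanin, was highest in follicle 33 at 0.68 ± 0.12 and had r of 0.373 (adjusted p = 0.00554).

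In the macrophage list 4 of 13 genes passed, with a median r of 0.501. The complement genes C1QB and C1QC were highest in C26, at 1.04 ± 0.14 and 0.74 ± 0.10, with r of 0.818 and 0.765 with IGHG1 (limma-moderated F test, adjusted p = 0.00483 and 0.009). C1QA varied little, with an SD of levels of 0.11 and r of 0.330 (adjusted p = 0.881). The r was positive for 10 of the 13 and lowest for CD14, at -0.190. In the T and NK cell list 0 of 15 passed, and 3 had an unadjusted p under 0.05, against 2349 of all 9031 genes. The median r was 0.414. CD3G, a chain of the T-cell receptor complex, had r of 0.554 and the kinase LCK 0.608 (limma-moderated F test, adjusted p = 0.0794 and 0.157). The part of macrophages or other leukocytes in the antibody gene levels was not tested. Of 6 measured genes of erythrocytes and plasma proteins 1 passed, and all 6 had a negative r with IGHG1, with a median of -0.218. That gene was ALAS2, the first enzyme of heme synthesis in red cell precursors, at -0.42 in C26 and -0.48 ± 0.14 in C32, its lowest follicle (adjusted p = 0.0109). AHSG, a liver plasma protein, had r of -0.168 (adjusted p = 0.248). The arrays measured RNA only, so the genes of plasma proteins give no measure of blood plasma. The blood content of the follicles was not tested.

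Genes that handle secreted proteins in the endoplasmic reticulum did not follow as a list: 6 of 16 passed, and the median r with IGHG1 was 0.016. HSP90B1, a chaperone that folds antibody chains among others, was at 0.78 in C26 but highest in C35 at 0.85 ± 0.16 (limma-moderated F test, adjusted p = 0.000786), with r of 0.480. PDIA4, a disulphide isomerase, ran from 1.05 ± 0.19 in C26 to -1.24 ± 0.20 in C13 (adjusted p = 0.00495), with r of 0.629. Of the cells of the follicle itself, the granulosa markers had a median r of -0.226 and the theca markers one of 0.276 with IGHG1. Among the 6 granulosa genes r ran from -0.452 for AMH to 0.382 for INHA, with 2 positive. Among the 3 theca genes it ran from -0.101 for CYP11A1 to 0.409 for INSL3, with 2 positive. FST and INHBA, both lowest in J980, had r of -0.327 and -0.307 (adjusted p = 1e-05 and 6.24e-05), and HSD3B1 and CYP11A1 had 0.276 and -0.101 (adjusted p = 0.00492 and 0.0391). The CYP11A1 call held in 10 of 33 alternatives. In the endothelial list 1 of 5 passed, PECAM1, whose single feature, 8_23_15, had r of 0.982 with IGHG1 (limma-moderated F test, adjusted p = 0.00533). The other 4 endothelial genes had r of -0.409 to 0.539, the highest being CLDN5, a tight junction protein (adjusted p = 0.0577).

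The 10 genes whose levels were most like those of IGHG1 over the 16 follicles included IGCGAMMA, with r of 0.992, another constant region gene of the heavy chain separated from IGHG1 by 1 other constant region gene in the RefSeq annotation of ARS-UCD2.0. LOC524810, with r of 0.971, carries the synonym IGHV there and lies beside IGHE. The other 8 do not encode immunoglobulins: CTSH, a lysosomal cathepsin, had r of 0.991, ORMDL2, a regulator of sphingolipid synthesis, 0.990, ATP5F1A, a subunit of ATP synthase, 0.985, the adhesion molecule PECAM1 0.982, the organic anion transporter SLCO2B1 0.979, the hexosaminidase HEXD 0.977, the zinc finger protein ZC3H7A 0.970 and the vitamin B6-binding protein PLPBP 0.967. The genes most like IGHM were CCPG1, a receptor for endoplasmic reticulum turnover, with r of 0.978, PECAM1 with 0.976, LOC524810 with 0.975, CTSH with 0.967 and ATP5F1A with 0.963. JCHAIN was most like RNF8, a ubiquitin ligase of DNA repair (0.935), CSF1R, the growth factor receptor of macrophages (0.935), CCPG1 (0.914), TMBIM1 (0.912) and MTCL1 (0.910). These genes are the top of 9031 searched, so their r values carry no test.

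Several of these genes had features that disagreed. HEXD had r of 0.988 with IGHG1 on feature 9_23_24 and 0.058 on feature 5_10_4. ZC3H7A had 0.989 on 32_21_20 and -0.175 on 28_21_20, ATP5F1A had 0.983 on 14_1_22 and 0.729 on 23_23_22, and TMBIM1 had 0.914 on 12_23_21 and -0.357 on 32_23_13. CSF1R, most like JCHAIN by its mean, had r of 0.918, 0.889, 0.724 and -0.370 with JCHAIN on its 4 features. CTSH, ORMDL2, PECAM1 and SLCO2B1 have 1 feature each, so no second feature could be set beside it. These features, 14_23_20, 4_23_8, 8_23_15 and 10_24_15, have middle numbers of 23 or 24, in a range taken up below. Features 24_3_5 of PLPBP, with r of 0.995, and 14_1_22 of ATP5F1A have middle numbers of 3 and 1. At the other end, FUBP1 (-0.845), ODC1, the first enzyme of polyamine synthesis (-0.841), WDR77 (-0.813), STX4 (-0.810) and HNRNPLL (-0.803) ran most against IGHG1. None of these 5 passed the limma-moderated F test (adjusted p = 0.119 to 0.871).

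The features that followed IGHG1 were unevenly placed by identifier. The middle of the 3 numbers in a feature identifier runs from 1 to 24, and no label or header used here says what it means. With r of at least 0.9 with the IGHG1 gene level, 173 of 16358 fitted features were followers, of which 156 (90.2%) had a middle number of 21 to 24, against 2598 (15.9%) of all fitted features. Put the other way, 6.0% of features numbered 21 to 24 followed IGHG1 and 0.124% of the rest. The 173 comprised 55 of IGHG1 or IGHM, 68 without a symbol, 41 with another single symbol (38 genes) and 9 with several symbols. Numbers 21 to 24 were held by all 55 of the first kind, 60 of the 68, 35 of the 41 and 6 of the 9. Of the heavy chain features, fitted or not, 58 of IGHG1 and all 19 of IGHM lay in that range, and 3 of IGHG1 did not. JCHAIN, CD79A, CD79B and MZB1 lay outside it, so the agreement of JCHAIN with the heavy chains was between features of unlike number. The part that the identifier, or whatever goes with it, has in the followers was not tested.

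**Figure D5:**
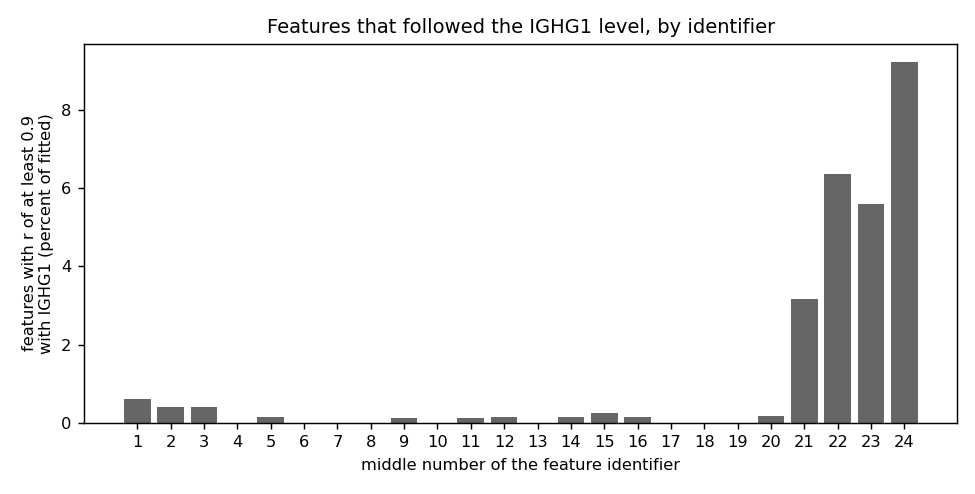
Percent of fitted features with r of at least 0.9 with the IGHG1 gene level (y axis), for each middle number of the feature identifier (x axis, 1 to 24). Bars reach at most 0.597 for numbers 1 to 20 and stand between 3.15 and 9.22 for numbers 21 to 24.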

How the data were processed

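RNA of 16 bovine follicles was compared on 24 dye-pair arrays; per the labels, an Axon scanner and GenePix Pro 4.0.1.12 were used. The authors deposited log ratios, taken here as log2 of Cy5 over Cy3. Absolute values reached 6.32, and log10 of 16-bit intensities cannot pass 4.82; natural logs cannot be told from log2. Background correction, filtering and normalization: not given in the sources used here. Deposited array medians lay between -0.0139 and 0.00639, SDs between 0.278 and 0.544. Unused columns numbered 0. No intensities were used, so signal over background is unknown.

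Features were named from the platform annotation (13605 with 1 symbol, 829 with several, 2984 with none). Arrays were centred on their medians, features of a symbol averaged, and rows with values on at least 20 arrays fitted with follicle effects and a dye term (residual degrees of freedom: 8). Variances were shrunk by limma 3.58.1 (R 4.3.3), with an F test and Benjamini-Hochberg adjustment at 0.05. The fit was tested on simulated data. Correlations and figures used scipy 1.17.1, numpy 2.4.6 and matplotlib 3.10.9 in Python 3.11.15.

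The members, the 14 gene lists and the naming rule were chosen with earlier results of these data known. The rule named the 6 genes, the 10 genes of highest and 5 of lowest r with IGHG1, the 5 of highest r with IGHM and with JCHAIN, and in each list the 2 of smallest p. Single features, the sets of follicles, the limit of 0.9 for features and the followers were chosen after their values were seen. Alternatives changed centring, scaling, minimum arrays, dye term, moderation, feature choice, fit, arrays and follicles; averaging only features on at least 20 arrays, or only agreeing features, was added after seeing the data. Sequences were not used here.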

Additional observations from a re-analysis of the deposited data

How the results depend on the processing

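In 871 of 954 values over 29 results and 35 alternatives, results kept their direction and their side of the threshold, or moved by less than their error. Counts of genes or features were taken as kept when they changed by less than a fixed ratio, which is no measure of error. By that rule 714 genes past the F test, without the array of 861 against C10, were taken as kept beside 1020. The count of genes past the F test, 1020, was 579 without the dye term, 576 with ordinary variances, 657 without follicle J980, and 675 to 1136 with 1 array left out (lowest without that of follicle 31 against C10). With values on all 24 arrays, 29 IGHG1 and 7 IGHM features had r of at least 0.9, since fewer features are fitted; with 1 array left out 7 to 12 IGHM features did, the lowest without the linking array of C26 against follicle 33. The IGHG1 difference of C26 over follicle 31 was 0.17 with 1 feature per gene, since the feature taken is the flat 10_23_24. The IGHM difference of C26 over follicle 46 was 2.16 with only agreeing features averaged. With 1 array left out, the difference of follicle 46 over follicle 26 in CD79B ran from -0.038 (without C10 against 26) to 0.33, and that of follicle 46 over C35 in CD79A from 0.15 to 3.00.

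With 1 feature per gene, r of IGHG1 was -0.728 with CD79A, -0.643 with CD79B and 0.639 with MZB1, and rho was -0.621 with CD79B and 0.641 with MZB1, all past the threshold, with that flat feature. The rank relation with CD79A, past the threshold for all 3 genes, was lost without the dye term (-0.526 for IGHG1, -0.568 for IGHM, -0.503 for JCHAIN), with the robust fit (-0.603, -0.447, -0.335) and without J980 (-0.482, -0.350, -0.246), and for JCHAIN with scaled arrays (-0.571).

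With 1 array left out, correlations with CD79A ran for IGHG1 from -0.614 to 0.227 (rho -0.759 to 0.241), for IGHM from -0.628 to 0.301 (rho -0.779 to 0.303) and for JCHAIN from -0.631 to 0.265 (rho -0.779 to 0.279). With CD79B they ran from -0.569 to 0.390 (rho -0.494 to 0.415), from -0.648 to 0.402 (rho -0.659 to 0.376) and from -0.611 to 0.392 (rho -0.682 to 0.426), in that order of genes. With MZB1 they ran from -0.0028 to 0.527 (rho -0.015 to 0.574), from -0.034 to 0.574 (rho -0.056 to 0.574) and from 0.0074 to 0.659 (rho 0.035 to 0.668). With CD79A and CD79B each highest value, the 1 change of sign, was without C10 against 26; with MZB1 the sign changed without C26 against 33 for IGHG1 and IGHM and without 33 against C12 for IGHM. The cause was not tested. The BOLA-DRB3 call was lost with 1 feature per gene (adjusted p = 0.0603 by limma).

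Each array paired 2 follicles, and the fit used this pairing. No further pairing was possible because the labels give the follicles no shared replicate numbers. The robust fit was run for levels and their correlations only. With 3 arrays per follicle and 2 arrays between the sets, array number limits precision; signal over background is unknown.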

Other observations

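Some genes outside the naming rule were picked after their values were seen and are given as values. ZNF280B, with 1 feature (27_21_17), had r of 0.955 with the IGHG1 level; in the RefSeq annotation of ARS-UCD2.0 the gene lies next to an immunoglobulin V segment. CTSS, a cathepsin of antigen-presenting cells, had r of 0.861 with IGHG1 and was highest in C26 at 0.69 (limma-moderated F test, adjusted p = 0.0534). PTPRC, the leukocyte common antigen, had r of 0.709 and was highest in C26 at 0.43 (adjusted p = 0.601). The macrophage list, which holds CTSS, ran in r from -0.190 to 0.861. That of all leukocytes, which holds PTPRC, ran from 0.179 to 0.881. The r of at least 0.7 with IGHG1 was reached by 161 of 9031 genes, among them 5 of 8 in the MHC class II list, 4 of 7 in that of all leukocytes, 5 of 13 macrophage genes and 0 of 9 in both the B-cell and the plasma cell list.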
